A study of Mus musculus with 2 samples.

Results

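Interferon-stimulated genes are the transcripts that cells make in quantity after interferon binds its receptors, and their products limit the entry, copying and spread of viruses. The receptors act through JAK kinases, and these activate a complex of STAT proteins and IRF9 that binds a promoter sequence called the interferon-stimulated response element (ISRE). Fibroblasts make interferon beta when nucleic acids appear in their cytosol, and many keep a low level of these transcripts without any added interferon. The set described here is 53 mouse genes chosen by name, out of 51912 gene rows in the deposited files. They were sorted into the OAS family (6 genes), IFIT (4), IFITM (3), GBP and IRG (7), PARP (3), IFI200 (3) and a mixed group of 27 others. All 53 symbols were found, each on a single row, and 52 were measured, with a mean level of at least 1 CPM (counts scaled to library size).

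The levels were measured by RNA-seq in 2 lines of mouse embryonic fibroblasts (MEFs) on a C57BL/6 background, each giving 1 library. UKS cells were Usp16-/-, made from Usp16flox/flox cells, and KS cells were Usp16+/+. Usp16 encodes a deubiquitinase of histone H2A. Both lines were immortalized with SV40T, the viral large T antigen that inactivates p53 and RB proteins, and both were infected with Ad-Cre, an adenovirus that carries Cre recombinase. Each genotype is thus represented by a single immortalized line, so genotype, line and library cannot be told apart. No p-value is given, and brackets hold exact 95% intervals of a ratio of counts, which cover counting error only.

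The libraries held 23205734 counts in UKS and 26561600 in KS, so 1 count was worth 0.0428 and 0.0379 CPM. Usp16 itself (ENSMUSG00000025616; GRCm38 chromosome 16, 87454703 to 87483517) had 459 counts (19.7 CPM) in UKS and 1195 counts (45.3 CPM) in KS. It was 2.30-fold lower [2.07 to 2.57]. Its log2 ratio was -1.16, or -0.88 after removal of the length and GC trend described below, which is inside 2-fold. Reads of any undeleted exons would still be counted, but the source of the reads left in UKS was not tested. All 10 fibroblast markers were detected in both libraries, with a summed level of 20805 CPM in UKS and 18482 CPM in KS. Fn1 made up most of that sum, and the other 9 summed to 6223 CPM in UKS and 9487 CPM in KS. Dcn stood 10.3-fold higher in UKS, while Thy1 and Pdgfra stood 4.71-fold and 2.86-fold lower. Among 9 leukocyte and macrophage markers, Adgre1, Itgam, Cd3e and Tyrobp had no count in either library, and the list summed to 5.27 CPM in UKS and 6.21 CPM in KS. The 3 dendritic cell markers summed to 0.257 CPM in UKS and 0.0379 CPM in KS, the 4 endothelial markers to 2.14 and 2.42 CPM in UKS and KS, and the 4 epithelial markers to 35 and 100 counts in UKS and KS. The lines also differed in sex-linked transcripts, with Xist at 6998 counts in UKS and 1 in KS, and the Y-linked Ddx3y at 1 count in UKS and 1511 in KS. The part of these differences in the results below was not tested.

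Many promoters of the set hold letters that match the element through which interferon acts. In the RefSeq promoter table on GRCm38.p6, 41 of the 53 genes had a window of 300 bases (250 before the start and 50 after it), and the ISRE was searched on both strands as GAAA, any 2 bases and GAAA again. The other 12 genes (Dhx58, Ifi204, Ifi27, Iigp1, Mx1, Mx2, Oas2, Parp14, Parp9, Rtp4, Usp18 and Zbp1) had no entry. Of these 41 genes 23 (56.1%) held a match in at least 1 listed start, against 3.99% of the 27025 genes in the table. The windows below show genes that stood at least 2-fold higher in UKS, then Eif2ak2, the gene that stood lower, then 2 near-identical IFIT genes. Capitals mark the ISRE match (TTTC, 2 bases and TTTC where it lies on the opposite strand), and overlapping matches run together. The second match in the Ifitm3 window is cut off by the window's end.
Isg15 (chr4:156200860-156200899, minus strand): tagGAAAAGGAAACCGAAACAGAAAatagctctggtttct
Bst2 (chr8:71537572-71537611, minus strand): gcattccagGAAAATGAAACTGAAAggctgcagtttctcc
Oas1a (chr5:120907515-120907554, minus strand): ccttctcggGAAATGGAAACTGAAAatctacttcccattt
Oas1g (chr5:120887601-120887640, minus strand): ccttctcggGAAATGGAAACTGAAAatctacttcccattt
Ifitm2 (chr7:140955983-140956022, minus strand): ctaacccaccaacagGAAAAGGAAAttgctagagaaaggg
Ifitm3 (chr7:141010718-141010757, minus strand): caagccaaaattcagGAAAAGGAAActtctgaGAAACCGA
Gbp2 (chr3:142620589-142620628, plus strand): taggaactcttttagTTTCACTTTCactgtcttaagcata
Eif2ak2 (chr17:78882530-78882569, minus strand): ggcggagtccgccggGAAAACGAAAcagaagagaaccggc
Ifit3 (chr19:34583392-34583431, plus strand): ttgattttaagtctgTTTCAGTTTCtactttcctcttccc
Ifit3b (chr19:34607788-34607827, plus strand): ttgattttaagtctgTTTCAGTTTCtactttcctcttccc
Isg15 carried 3 overlapping matches and Oas1a, Oas1g and Bst2 2 each. The windows of Oas1a and Oas1g were identical, as were those of Ifit3 and Ifit3b. The Eif2ak2 match lay after the annotated start, as did those of Ifitm3.

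The set was already well expressed in KS cells and stood higher in UKS cells. Its summed counts made up 0.994% of the UKS library (exact binomial 95% interval 0.990 to 0.998%) and 0.650% of the KS library (0.647 to 0.653%). That is 9882 CPM in UKS against 6536 CPM in KS, 1.51-fold higher [1.5 to 1.52]. At least a 2-fold excess in UKS was found for 13 of the 52 measured genes on the log2((UKS + 1)/(KS + 1)) scale of CPM, where 5.81% of the 13015 genes tested were. Of these 13, Ifitm1 reached the minimum level only through UKS, the library in which it was high. Only Eif2ak2 was at least 2-fold lower, where 10.7% of all genes tested were, and 38 lay within 2-fold. The median log2 ratio was 0.43, beside 0.03 over all genes tested, and 38 of the 52 ratios lay above 0, beside 51.9% of all genes tested. The set was chosen with earlier results of these data known, so its distance from all genes is not an independent result.

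Ranked by level per transcript length (TPM computed from the counts and the longest annotated coding transcript), Ifitm3 led the set in both libraries. It was gene 15 of all genes in UKS at 4386 TPM and gene 59 in KS at 1832 TPM. Bst2 (2299 TPM in UKS, 1265 TPM in KS), Isg15 (2019 and 978 TPM in UKS and KS), Ifitm2 (1788 and 906 TPM) and Ifit3 (873 and 620 TPM) followed in that order in both. The lowest measured level was that of Ifi205 in UKS (6.06 TPM) and that of Ifitm1 in KS (2.55 TPM). Ifi44l had no count in UKS and 1 in KS, below the floor of 3 counts, so no ratio is given for it. In all, 16 of the 53 genes ranked within the first 1000 by TPM in UKS and 10 did in KS.

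**Figure D1:**
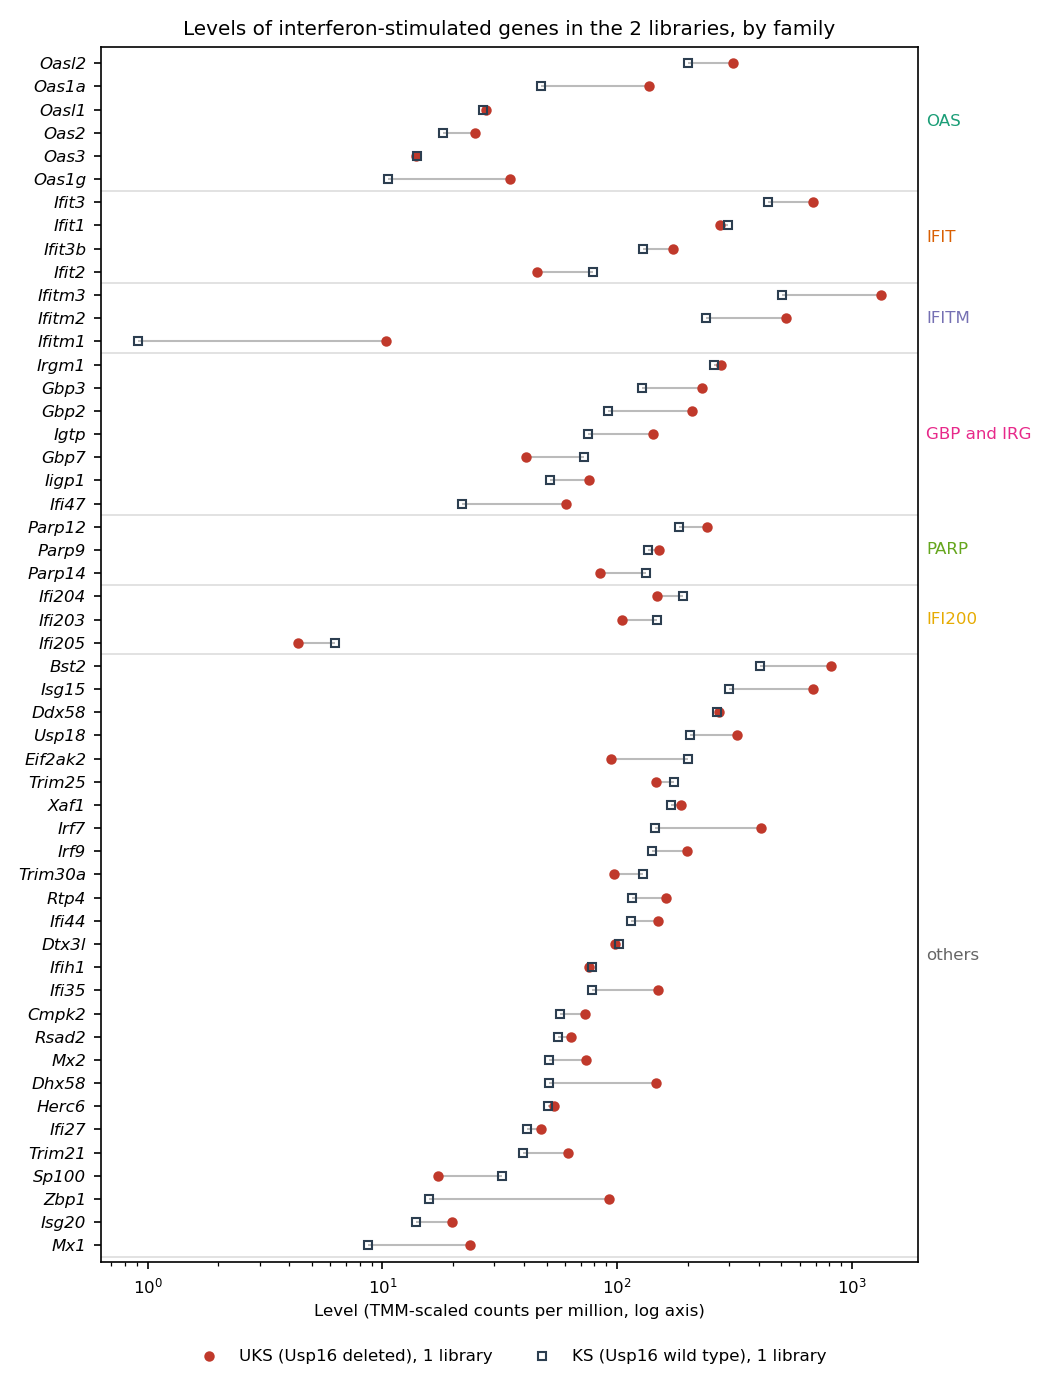
Level of each of the 52 measured genes on a log axis of TMM-scaled CPM, filled circles for the UKS library and open squares for the KS library, grouped by family. Ifitm1 shows the widest gap (10.4 CPM in UKS, 0.909 CPM in KS), while the 3 IFI200 genes all stand lower in UKS. Ifi44l, with 1 count in all, is not drawn.

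The IFITM genes encode small membrane proteins that block the fusion of viruses with cell membranes, and theirs was the family with the largest summed ratio of the 7 groups. Together they held 43486 counts (1862 CPM) in UKS and 19617 counts (743 CPM) in KS, 2.51-fold higher [2.46 to 2.55]. Ifitm1 (chromosome 7, 140967221 to 140969825) had 242 counts (10.4 CPM) in UKS and 24 counts (0.909 CPM) in KS, an 11.4-fold difference [7.48 to 18.1]. Ifitm3 (chromosome 7, 141009586 to 141010770) stood at 1329 CPM in UKS and 502 CPM in KS, 2.65-fold higher [2.59 to 2.70]. Ifitm2 (chromosome 7, 140954837 to 140955987) stood at 523 CPM in UKS and 240 CPM in KS, 2.18-fold higher [2.12 to 2.25]. Ifitm1 thus had the largest fold of the set on few counts and was, even in UKS, a minor part of the family. In KS it lay under the minimum level of 1 CPM, so it was measured only through UKS. With a pseudocount of 5 CPM its log2 ratio was 1.38 in place of 2.57, below the 2.23 of Zbp1. The Ifitm1 window, unlike those of Ifitm2 and Ifitm3, held no ISRE match. It spanned 140967826 to 140968125, inside the annotated gene, so the bases before the gene's annotated start were not searched. Of the 50-base windows of the Ifitm2 transcript 48.5% also occur in transcripts of other genes, mostly in those of an overlapping predicted gene outside the set. Reads of Ifitm2 may thus have been divided with that gene, even in the family sum. After correction for the transcriptome-wide trend in length and GC content (described below), Ifitm2 stood at a log2 ratio of 0.62, inside 2-fold, Ifitm3 at 1.0 and Ifitm1 at 2.24.

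The OAS enzymes sense double-stranded RNA and make the oligoadenylates that activate RNase L. As a family they held 549 CPM in UKS and 318 CPM in KS, 1.72-fold higher [1.68 to 1.77]. The largest ratios were those of the OAS1 genes. Oas1a (chromosome 5, 120896256 to 120907521) had 3167 counts (136 CPM) in UKS and 1246 counts (47.2 CPM) in KS, 2.87-fold higher [2.69 to 3.07]. Its neighbour Oas1g (chromosome 5, 120876142 to 120887613) had 820 counts (35.1 CPM) in UKS and 279 counts (10.6 CPM) in KS, 3.32-fold higher [2.90 to 3.82]. These transcripts share 57.6% of the 50-base windows of Oas1a, so reads may have been divided between them, and their sum was 2.96-fold higher [2.79 to 3.14]. The other members of the family were closer in the 2 libraries. Oasl2 stood at 312 CPM in UKS and 201 CPM in KS (1.55-fold), and Oas2 at 24.8 CPM in UKS and 18.1 CPM in KS (1.37-fold). Oas3 had 325 counts in UKS and 370 in KS and Oasl1, which in mice restrains IRF7 translation, 644 and 710 in UKS and KS, and the intervals of both ratios included 1. With the trend removed Oasl1 stood at a log2 ratio of -0.37 in place of 0.04. Of the 6 OAS1 relatives outside the set, Oas1b (669 counts in UKS, 540 in KS) and Oas1c (199 and 181 counts in UKS and KS) were measured, and both lay within 2-fold.

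The IFIT proteins bind foreign RNA ends and hinder their translation. This family had the third largest summed level in UKS after the mixed group and IFITM, 1173 CPM against 941 CPM in KS, 1.25-fold higher [1.22 to 1.27]. Its members did not share a direction. Ifit3 had 681 CPM in UKS and 437 CPM in KS (1.56-fold [1.52 to 1.60]) and Ifit3b 173 CPM in UKS and 129 CPM in KS (1.34-fold [1.28 to 1.40]). Ifit1 had 273 CPM in UKS and 296 CPM in KS. Ifit2 had 45.7 CPM in UKS and 78.9 CPM in KS, 1.72-fold lower [1.60 to 1.86]. No member was past 2-fold, beside 5.81% of all genes tested higher and 10.7% lower. With the trend removed the log2 ratio of Ifit1 was 0.19 in place of -0.12 and that of Ifit2 -0.25 in place of -0.77. Ifit3 and Ifit3b share 51.2% of the windows of Ifit3, and their sum was 1.51-fold higher [1.48 to 1.54].

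Guanylate-binding proteins (GBP) and immunity-related GTPases (IRG) attack the vacuoles in which bacteria and parasites live, and many respond to interferon gamma as well as to type I interferon. The 7 genes of the set summed to 1034 CPM in UKS and 698 CPM in KS, 1.48-fold higher [1.45 to 1.51]. Ifi47 (chromosome 11, 49076587 to 49096974) had 1417 counts (60.7 CPM) in UKS and 578 counts (21.9 CPM) in KS, 2.77-fold higher [2.51 to 3.06]. Gbp2 (chromosome 3, 142620602 to 142638008) had 4867 counts (208 CPM) in UKS and 2418 counts (91.6 CPM) in KS, 2.28-fold higher [2.17 to 2.39]. Igtp (1.90-fold), Gbp3 (1.80-fold) and Iigp1 (1.47-fold) stood higher within 2-fold. Irgm1, the family's most abundant gene per length, was nearly level at 277 CPM in UKS and 259 CPM in KS. Gbp7 went the other way, with 40.7 CPM in UKS and 72.4 CPM in KS, 1.78-fold lower [1.64 to 1.92]. Gbp7, Gbp3 and Gbp2 lie side by side on chromosome 3 and had log2 ratios of -0.81, 0.85 and 1.18. With the trend removed these were -0.08, 0.97 and 1.23, so Gbp7 was then close to level.

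Of 12 GBP and IRG relatives outside the set, 6 were measured, 3 at least 2-fold higher in UKS and none lower. Of all genes tested 5.81% were higher and 10.7% lower. Tgtp2 had 1207 counts in UKS and 303 in KS (4.50-fold [3.97 to 5.13]), while Tgtp1 had 441 in UKS and 661 in KS. These copies share 89.4% of the windows of Tgtp1, and their sum was 1.93-fold higher [1.78 to 2.09]. Gbp5 had 293 counts in UKS and 68 in KS (4.87-fold [3.73 to 6.44]). Gbp6 had 997 counts in UKS and 304 in KS (3.71-fold [3.26 to 4.23]), and 90.2% of its windows also lie in a predicted gene that had no count in either library.

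The PARP genes of the set encode ADP-ribosyltransferases, and they were close to level as a sum, at 476 CPM in UKS and 451 CPM in KS (1.06-fold [1.03 to 1.08]). Parp12 had 242 CPM in UKS and 183 CPM in KS (1.32-fold), and Parp9, the partner of the ubiquitin ligase Dtx3l, 150 CPM in UKS and 135 CPM in KS (1.11-fold). Parp14, whose transcript is the longest of the set at 7417 nt, had 84.4 CPM in UKS and 133 CPM in KS, 1.58-fold lower [1.49 to 1.67], and its log2 ratio was -0.09 with the trend removed in place of -0.65. Exons of Parp9 and Dtx3l overlap on opposite strands, so without strand their reads cannot be fully separated. None of 13 relatives in the wider PARP family was past 2-fold, beside 5.81% of all genes tested higher and 10.7% lower. Just inside 2-fold were Parp10 (175 CPM in UKS, 87.7 CPM in KS, log2 0.99) and Tnks (87.0 CPM in UKS, 174 CPM in KS, log2 -0.99, or -0.31 with the trend removed).

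The IFI200 genes, which encode DNA-binding proteins with a PYRIN or HIN domain, formed the group in which every measured member stood lower in UKS. Ifi204 had 148 CPM in UKS and 191 CPM in KS (1.29-fold lower [1.23 to 1.35]). Ifi203 had 105 CPM in UKS and 148 CPM in KS (1.42-fold lower [1.35 to 1.49]), and Ifi205 102 counts in UKS and 165 in KS (1.43-fold lower [1.11 to 1.85]). Their sum was 257 CPM in UKS and 346 CPM in KS, 1.34-fold lower [1.30 to 1.39]. Of the 50-base windows of Ifi205 49.6% also occur in transcripts of other genes, and of those of Ifi204 30.2%. Most of these occur in a relative outside the set, so reads may have been divided with it even in the sum. The 3 IFI200 transcripts of the set are AT-rich (median GC content 39.1%). With the trend in length and GC content removed, the 3 log2 ratios were 0.11, 0.32 and 0.10 for Ifi204, Ifi203 and Ifi205, and the log2 ratio of the summed family was 0.20 in place of -0.43. So the direction of this family depends on that correction. Of 8 measured relatives 5 stood lower in UKS as counted, among them Ifi202b (59.8 CPM in UKS, 84.4 CPM in KS, and a log2 ratio of 0.20 with the trend removed). Aim2, the DNA sensor of the inflammasome, had 48 counts in UKS and 3 in KS. Its ratio was 18.1 [5.83 to 90.8], with a log2 ratio of 1.46 after the pseudocount. Ifi206 had 82 counts in UKS and 52 in KS. Ifi209 had 5 in UKS and 52 in KS, and its log2 ratio was -1.29, or -0.59 with the trend removed. It reached the minimum level only through KS (1.97 CPM, against 0.214 CPM in UKS).

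Among the remaining 27 genes the sensors of foreign nucleic acid were divided. Zbp1, a sensor of Z-form nucleic acid that triggers necroptosis (chromosome 2, 173206612 to 173218923), had 2164 counts (92.7 CPM) in UKS and 417 counts (15.8 CPM) in KS, 5.87-fold higher [5.28 to 6.53]. Dhx58, which encodes the RNA helicase LGP2 (chromosome 11, 100694884 to 100704271), had 3412 counts (146 CPM) in UKS and 1347 counts (51.0 CPM) in KS, 2.86-fold higher [2.69 to 3.05]. The companion helicases were closer in the 2 libraries as counted. Ddx58, which encodes RIG-I, had 271 CPM in UKS and 267 CPM in KS, and Ifih1, which encodes MDA5, 75.9 CPM in UKS and 78.2 CPM in KS, with intervals that included 1. Eif2ak2, which encodes the RNA-activated kinase PKR (chromosome 17, 78852564 to 78882573), had 2207 counts (94.5 CPM) in UKS and 5270 counts (200 CPM) in KS, 2.11-fold lower [2.01 to 2.22]. With the trend removed the log2 ratio was -0.63 in place of -1.07 for Eif2ak2, 0.59 in place of -0.04 for Ifih1 and 0.23 in place of 0.02 for Ddx58.

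Both transcription factor genes of the set stood higher. Irf7, which drives the interferon alpha genes and amplifies the response (chromosome 7, 141262706 to 141266481), had 9569 counts (410 CPM) in UKS and 3817 counts (145 CPM) in KS, 2.83-fold higher [2.73 to 2.94]. Irf9, the DNA-binding part of the STAT complex, had 198 CPM in UKS and 141 CPM in KS, 1.40-fold higher [1.34 to 1.46]. The exons of Irf7 and of Irf9 each overlap those of another gene in part, Phrf1 and Rnf31.

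The ISG15 system attaches a ubiquitin-like protein to targets. Isg15 (chromosome 4, 156199424 to 156200818) had 15923 counts (682 CPM) in UKS and 7887 counts (299 CPM) in KS, 2.28-fold higher [2.22 to 2.35]. Usp18, the protease that removes ISG15 and dampens the receptor, had 324 CPM in UKS and 205 CPM in KS (1.59-fold). Herc6, the mouse ISG15 ligase, had 53.9 CPM in UKS and 50.9 CPM in KS, with an interval that included 1 (log2 0.08). The ligase Trim25 had 147 CPM in UKS and 174 CPM in KS (1.18-fold lower). Isg15 is a short transcript (756 nt), and with the trend removed its log2 ratio was 0.75 in place of 1.19. That of Herc6, a long AT-rich transcript, was then 0.91, so the order of these genes depends on the correction.

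Of the direct antiviral effectors, Bst2 (tetherin, which holds budding virus on the cell surface; chromosome 8, 71534255 to 71537456) had 18996 counts (814 CPM) in UKS and 10692 counts (405 CPM) in KS. Its fold of 2.01 [1.96 to 2.06] was at the edge of the threshold, and its log2 ratio with the trend removed was 0.48. Mx1, a dynamin-like GTPase whose gene carries a deletion in C57BL/6 mice (chromosome 16, 97447035 to 97462907), had 553 counts (23.7 CPM) in UKS and 228 counts (8.64 CPM) in KS. It was 2.74-fold higher [2.35 to 3.21], while its neighbour Mx2 had 73.8 CPM in UKS and 51.3 CPM in KS (1.44-fold). The viperin gene Rsad2 (63.7 CPM in UKS, 55.7 CPM in KS) and the adjacent nucleotide kinase gene Cmpk2 (72.8 CPM in UKS, 56.9 CPM in KS) differed by 1.14-fold and 1.28-fold. In all, 19 of the 26 measured genes in this mixed group lay within 2-fold, with log2 ratios from -0.87 for the nuclear body gene Sp100 to 0.93 for Ifi35.

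**Figure D2:**
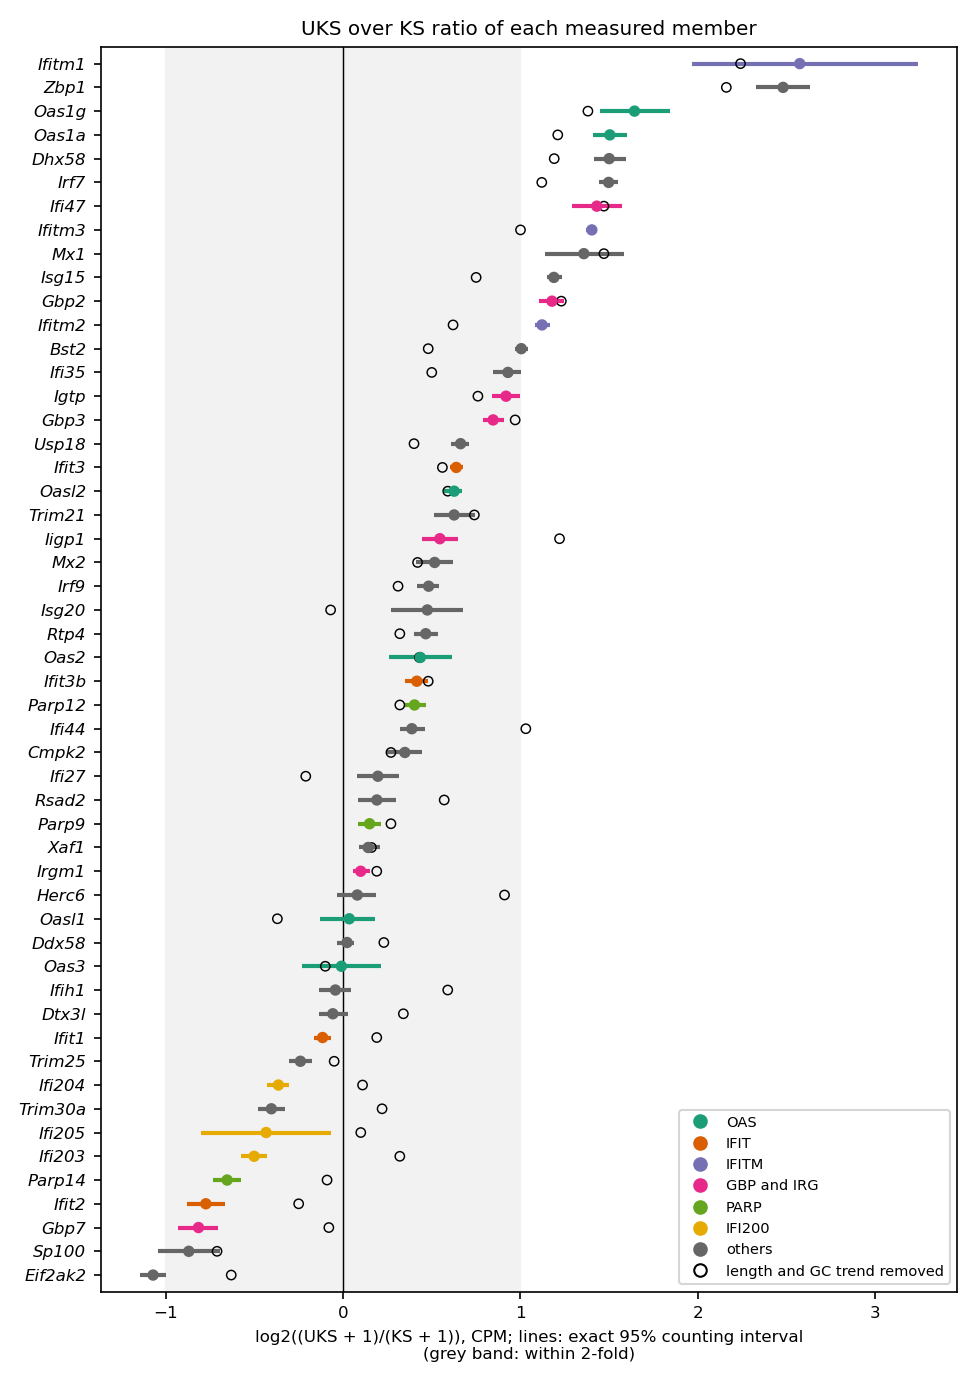
Log2((UKS + 1)/(KS + 1)) of CPM for the 52 measured genes, coloured by family, with exact 95% counting intervals as lines and, as open circles, the same ratio corrected for the length and GC trend. Ratios run from 2.57 for Ifitm1 to -1.07 for Eif2ak2, and the open circles of Iigp1, Ifi44 and Herc6 lie well to the right of their filled ones.

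Short, GC-rich transcripts tended to stand higher in UKS throughout the transcriptome, and the set followed this trend. Across the 52 genes Spearman's correlation of the log2 ratio was -0.64 with transcript length and 0.59 with GC content, and across 12997 genes tested with both properties it was -0.40 and 0.52. Genes are not independent replicates and all of these ratios come from the same 2 libraries. Of the 13 shortest members (up to 1859 nt) 6 were at least 2-fold higher, with a median log2 ratio of 0.93. Of the 13 longest (3771 nt or more) none was, with a median of -0.06. After removal of the trend, these medians were 0.50 and 0.22. The counts for the whole set then came to 12 genes at least 2-fold higher and none lower, where 5.52% and 4.92% of all genes tested were, and the median was 0.42. The corrected ratio lay above 0 for 42 of the 52, where it did for 50.6% of all genes tested. Of the 13 genes counted as higher 10 remained so. Ifitm2, Isg15 and Bst2 moved inside 2-fold, and Iigp1 (log2 1.22) and Ifi44 (1.03) moved outside it. This trend is a difference between the 2 libraries in its own right, and its part in each gene's ratio was not tested.

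**Figure D3:**
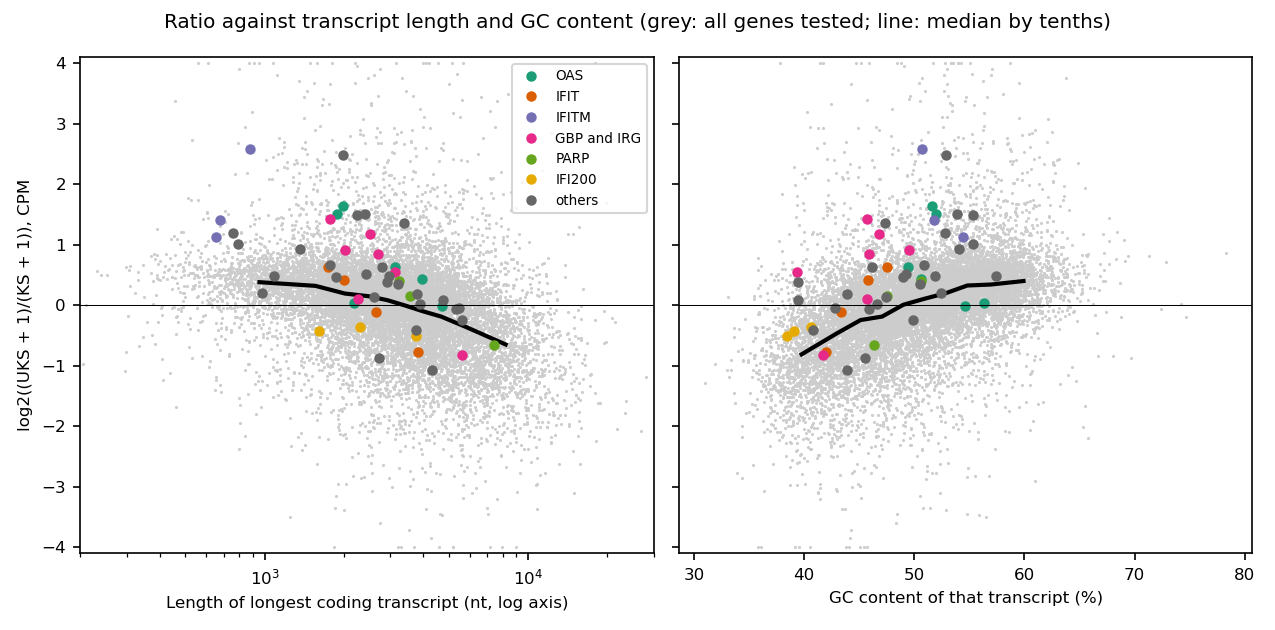
Log2((UKS + 1)/(KS + 1)) of CPM against the length (left, log axis) and GC content (right) of the longest coding transcript, for all genes tested (grey, drawn no further than 4 in either direction) and the members by family. The black line joins medians of equal-sized bins of genes. It falls with length and climbs with GC content, as the members' ratios do, with correlations of -0.64 and 0.59 among the members.

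Upstream of the set, interferon transcripts were close to undetected while the receptors and signalling proteins were expressed. Of 21 interferon genes 15 had no count in either library. The 14 interferon alpha genes had 4 counts in all in UKS and 0 in KS. Interferon beta (Ifnb1), the type I interferon of fibroblasts, had 7 counts in UKS (exact Poisson 95% interval 2.81 to 14.4) and 4 in KS (1.09 to 10.2), so no difference was detectable at this depth. Ifnz had 35 counts in UKS and 26 in KS, but 76.9% of its windows also occur in other transcripts.

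The type I receptor chain genes Ifnar2 and Ifnar1 stood 1.73-fold [1.59 to 1.89] and 1.30-fold [1.23 to 1.38] higher in UKS, at 58.1 and 104 CPM in UKS against 33.5 and 79.6 CPM in KS. Of the interferon gamma receptor genes, Ifngr2 had 137 CPM in UKS and 76.7 CPM in KS (1.79-fold [1.69 to 1.89]) and Ifngr1 27.0 CPM in UKS and 25.5 CPM in KS, with an interval that included 1. Il10rb, a chain of the interferon lambda receptor, had 36.5 CPM in UKS and 19.8 CPM in KS (1.84-fold, with 29.0% of its windows shared with a predicted gene), and its partner Ifnlr1 had 11 counts in UKS and 8 in KS. Ifnar1, Ifnar2, Ifngr2 and Il10rb lie together on chromosome 16, within 3.92 to 4.09 Mb of Usp16.

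Of 10 signalling and IRF genes 9 were measured, and of these Irf5 alone was past 2-fold, higher in UKS. Among all genes tested 5.81% were at least 2-fold higher and 10.7% lower. Irf5 had 665 counts (28.5 CPM) in UKS and 126 counts (4.77 CPM) in KS, 5.97-fold higher [4.93 to 7.28]. Stat2, a part of the ISRE-binding complex, had 285 CPM in UKS and 333 CPM in KS (1.17-fold lower). Irf1 stood 1.92-fold higher (83.9 CPM in UKS, 43.6 CPM in KS) and Tyk2 1.47-fold (46.3 CPM in UKS, 31.6 CPM in KS). Jak2 stood 1.80-fold lower (23.9 CPM in UKS, 43.0 CPM in KS), while Jak1 had 312 CPM in UKS and 293 CPM in KS. Irf3 stood 1.33-fold higher (log2 0.40, or -0.03 with the trend removed) and Irf2 1.14-fold, and Irf8 had 38 counts in UKS and 4 in KS, under the minimum level. None of 7 inhibitors of interferon signalling was past 2-fold, beside the same shares of all genes tested. Among them Socs1 had 21.7 CPM in UKS and 11.2 CPM in KS (log2 0.90), and Socs3 62.0 CPM in UKS and 38.5 CPM in KS (0.67). Ptpn6 had 43 counts in UKS and 24 in KS (log2 0.57 after the pseudocount), and Usp18 is given above. Of 9 genes of nucleic acid sensing Aim2 alone was past 2-fold (log2 1.46), again beside these shares of all genes tested. Aim2 reached the minimum level only through UKS (2.06 CPM, against 0.114 CPM in KS). The largest of the other ratios belonged to Ticam1 (log2 0.64) and Ikbke (0.54) and, on the lower side, Ifi202b (-0.49).

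Genes known for their response to interferon gamma were divided between those measured and those under the minimum level, the MHC class II genes among them. Of 13 listed 6 were measured, 3 of them at least 2-fold higher in UKS, beside 5.81% of all genes tested. The chemokine genes Cxcl10 and Cxcl11 had 4012 and 162 counts in UKS and 1100 and 13 in KS, ratios of 4.12 [3.86 to 4.41] and 14.1 [8.01 to 27.0]. Cxcl11 reached the minimum level only through UKS (6.94 CPM, against 0.492 CPM in KS). The adhesion molecule gene Icam1, which NF-kB also controls, had 1187 counts in UKS and 111 in KS, 12.1-fold higher [9.95 to 14.8]. Irf1 (log2 0.93), Socs1 (0.90) and Gbp2b (0.74) stood higher within 2-fold. The class II genes H2-Aa, H2-Ab1 and H2-Eb1 had 1, 8 and 12 counts in UKS and 0, 0 and 14 in KS, and their regulator Ciita had 2 in UKS and 4 in KS, so that axis was near silent in both lines.

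**Figure D4:**
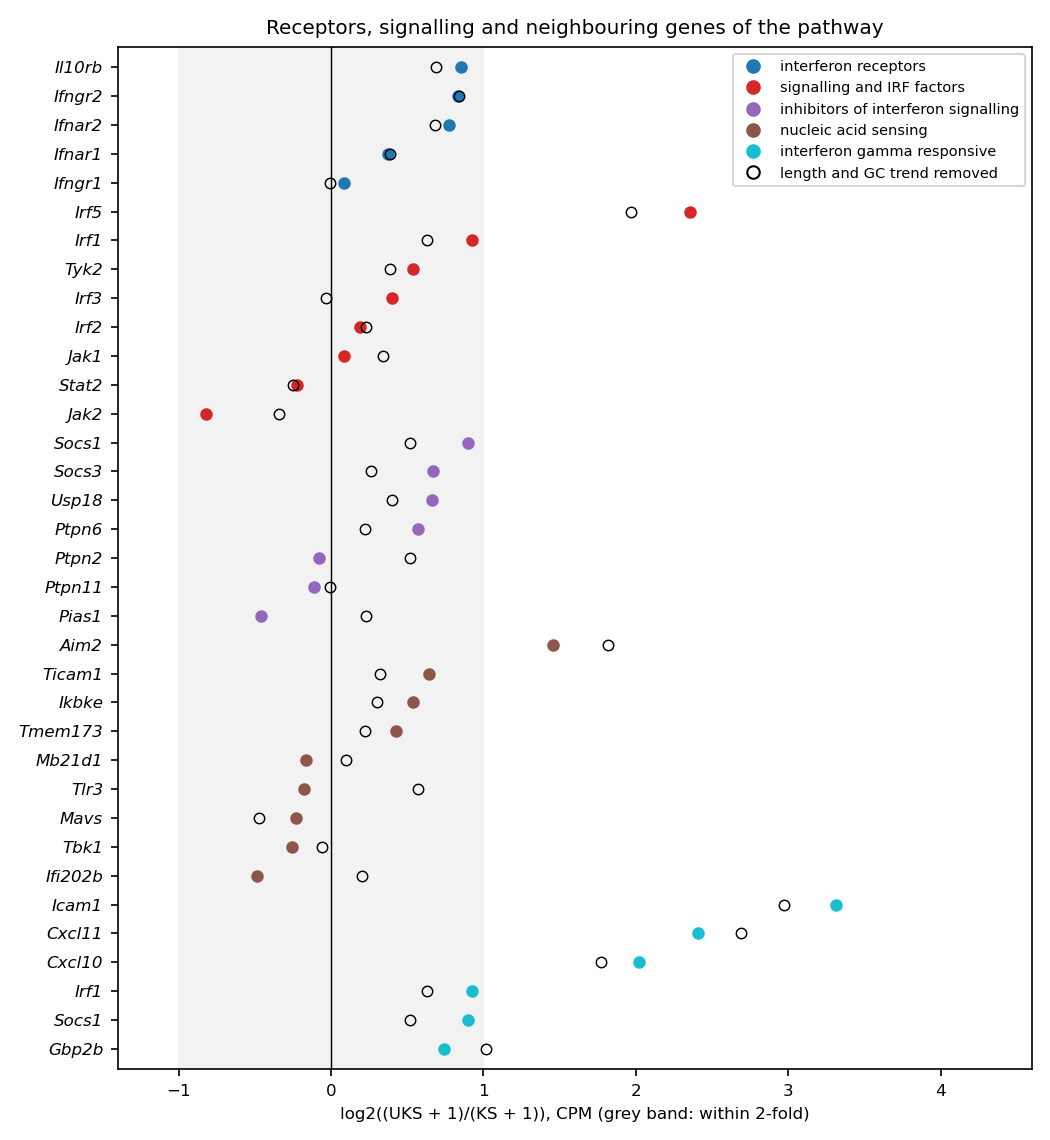
Log2((UKS + 1)/(KS + 1)) of CPM for genes of 5 lists around the set (filled, coloured by list), with the ratio after removal of the length and GC trend as open circles. Irf5, Aim2, Icam1, Cxcl11 and Cxcl10 lie outside the grey band of 2-fold, and the 5 receptor genes all lie above 0.

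Genes with and without an ISRE match had similar median log2 ratios, and whether a match goes with a higher ratio was not tested. The 23 genes with a match had a median log2 ratio of 0.42 (from -1.07 to 1.64), and the 17 measured genes whose windows held none had 0.39 (from -0.87 to 2.57). Among the 10 genes at least 2-fold higher with a promoter entry, 7 held a match, Oas1a, Oas1g, Isg15, Ifitm2, Ifitm3, Gbp2 and Bst2. The 3 without were Ifitm1, Irf7 and Ifi47, of which the Ifitm1 window began inside the annotated gene. Dhx58, Mx1 and Zbp1, also at least 2-fold higher, had no promoter entry and so could not be searched. Of the 29 such genes within 2-fold 15 held a match, among them Ifit1, Ifit3 and Ddx58. The gamma-activated sequence (GAS) motif, TTCNNNGAA (its own reverse complement), was found in 9 of the 41 genes (22.0%), against 9.55% of all genes in the table, and the NF-kB motif in 2 genes, Bst2 and Oasl1 (4.88%, against 5.14%). Such matches describe letters within the window and not binding, and the ISRE letters can overlap each other, as in Isg15.

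**Figure D5:**
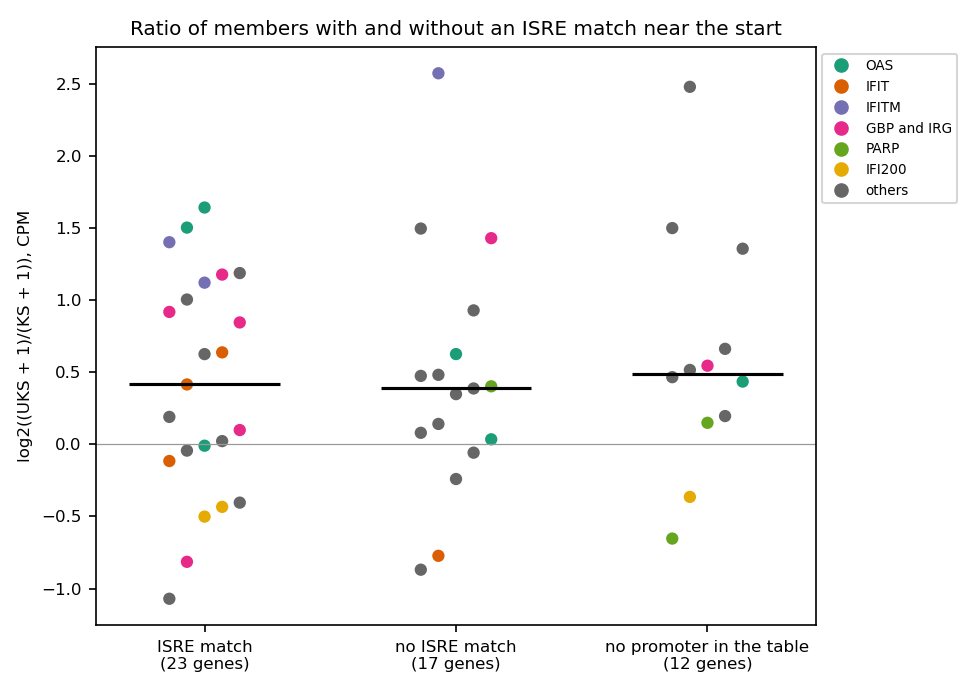
Log2((UKS + 1)/(KS + 1)) of CPM for members with an ISRE match in the 300-base window, with none, and without a promoter in the table, coloured by family, with medians as bars. The 3 medians are 0.42, 0.39 and 0.49, and each group spans both sides of 0.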

How the data were processed

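RNA-seq of 2 libraries, 1 of UKS and 1 of KS cells, was used. Per the labels' protocols, RNA was extracted with TRIzol and libraries were made with an Illumina TruSeq kit. Per the submitters' processing notes, HISAT2, StringTie and the GRCm38.p5 build were used, in roles that are not stated. Which program counted reads, on which annotation and with which strand setting, is not given in the sources used here. Deposited files hold estimated counts (expected counts) per gene with no scaling, which were rounded to whole numbers.

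Counts were scaled with TMM factors (edgeR 4.0.16, R 4.3.3). The value compared was log2((UKS + 1)/(KS + 1)) of CPM, taken where the 2 libraries averaged 1 CPM or more, and 2-fold was a size, not a test. Intervals came from scipy 1.17.1 (Clopper-Pearson for ratios, exact Poisson for counts). Coordinates, lengths, GC content and shared 50-base windows came from GENCODE M21 (GRCm38), in which 51633 of 51912 identifiers were found, and promoters from RefSeq (GRCm38.p6). The trend was a Tukey biweight regression (statsmodels 0.14.6) of the log2 ratio on length and GC content with cubic terms, fitted on the 12870 tested genes outside the lists and removed from 12997. Any true difference that tracks these properties is removed with it. DESeq2 1.42.0 size factors, other pseudocounts, filters and thresholds, unrounded counts and omission of close paralogs were alternatives. The steps were tested on simulated data. The members and lists were chosen with earlier results of these data known. The named-gene rule gave values for members past 2-fold, for the other members of the 6 families and for receptors and most signalling genes, and up to 4 genes of each other list by size of ratio. The class II genes, Ciita and the interferon genes were named outside this rule, after their values were seen. A further engineered change that both lines carry and a few listed genes are not reported here.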

Additional observations from a re-analysis of the deposited data

How the results depend on the processing

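No paired analysis was possible because each group has 1 library, and for the same reason no library could be left out. The count of 13 genes at least 2-fold higher was 12 with DESeq2 size factors, with a pseudocount of 5 CPM and with the length and GC trend removed. It was 20 at a 1.5-fold threshold (where 15.4% of all genes tested were higher and 21.1% lower) and 7 of 38 with close paralogs left out. The count of 1 lower gene was 0 with the trend removed and 5 at 1.5-fold. Removal of the trend put the log2 ratio of the summed counts at 0.66 for OAS, 0.38 for IFIT, 0.90 for IFITM, 0.71 for GBP and IRG, 0.19 for PARP, 0.20 for IFI200 and 0.46 for the others, against 0.78, 0.32, 1.32, 0.57, 0.08, -0.43 and 0.58 as counted, so IFI200 changed direction. With DESeq2 size factors IFIT stood at 0.29, IFITM at 1.30, GBP and IRG at 0.54 and the others at 0.55, and with total counts alone the others stood at 0.59. Shares of all genes tested were 3.17% higher and 6.42% lower at a pseudocount of 5 CPM and 3.69% and 6.62% with no filter, and 4.92% were lower with the trend removed. A pseudocount of 5 CPM moved 5 genes out of their counting interval, Ifitm1 the furthest, by -1.19, and one of 0.1 CPM moved Ifitm1 alone, by 0.80. Single genes moved by -0.03 to 0.02 under the scalings, and 40 of 52 left their counting interval with the trend removed, by -0.54 to 0.83. No gene past 2-fold changed sign under these alternatives.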

Other observations

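The genomic neighbourhoods of the members differed. On chromosome 7, Ifitm2, Ifitm1, Ifitm3 and Irf7 lie between 140954837 and 141266481 (GRCm38), and all 4 were at least 2-fold higher in UKS. After removal of the length and GC trend, Ifitm2, Ifitm1, Ifitm3 and Irf7 stood at log2 ratios of 0.62, 2.24, 1.0 and 1.12. Of 28 other measured genes within 200 kb of that stretch 1 was at least 2-fold higher and none lower, with a median log2 ratio of 0.46. One of these 28, Ifitm6, fell just short of the threshold at 0.999. For all genes tested the shares past 2-fold were 5.81% on the higher side and 10.7% on the lower, and the median was 0.03. On chromosome 5, Oas1a and Oas1g were at least 2-fold higher while Oas2 and Oas3 in the same stretch were not, and 7 other measured genes within 200 kb had a median of 0.19. On chromosome 19, beside the 4 IFIT genes, of which none was past 2-fold, Ch25h stood at a log2 ratio of 2.33. Ch25h encodes cholesterol 25-hydroxylase, whose product has antiviral effects. On chromosome 12, Rnf144a stood at 1.70 beside Rsad2 and Cmpk2, which lay at 0.19 and 0.35. Both Ch25h and Rnf144a were named after their values were seen.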
